A study of Homo sapiens with 6 samples.

Results

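The DNA replication machinery was described here as 48 genes that encode the proteins which mark origins, load and start the replicative helicase, synthesise DNA, join it and supply its building blocks. They were chosen by gene name, and all 48 were present among the 17911 genes of the table. RNA came from cultured LX-2 cells, an immortalised line derived from human hepatic stellate cells, which store vitamin A in healthy liver and lay down matrix in fibrosis. The WT group (3 libraries) carried no labelled change, and the MPI MT group (3 libraries, called mutant here) carried a mutation in exon 3 of MPI, the gene of mannose phosphate isomerase, an enzyme that links glycolysis to the mannose supply for glycosylation. All libraries came from cells kept in serum-containing medium with no labelled treatment. The labels give neither the MPI allele nor whether the mutant cells are 1 clone or a pool, so genotype and clone cannot be told apart.

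Replication starts in G1, when the origin recognition complex, CDC6 and CDT1 load the ring-shaped MCM2-7 helicase onto DNA. In S phase CDC45 and the GINS complex turn this ring into an active helicase, primase and polymerase alpha lay down primers, and polymerases epsilon and delta extend them with the sliding clamp PCNA, which the RFC complex loads. Many of these genes are transcribed by E2F factors as cells enter S phase, so their RNA is low in resting cells. Stellate cells are resting in healthy liver and divide once activated or in culture.

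Levels are normalised read counts, that is read counts divided by 1 size factor per library, and are given in the order of the library numbers 1, 2 and 3 or as mean ± SD (n = 3 libraries per genotype). Changes compare mutant with WT as a log2 fold change ± SE, computed after adding 1 to each value, and the test was limma with Benjamini-Hochberg adjustment over all genes tested. A change is called at an adjusted p under 0.05. The labels do not state separate cultures, so p-values measure only how far these libraries spread, which may be technical. Reads recovered over the listed genes were 27037905 to 34970840 per library. MPI was at 1292, 1283 and 1256 in WT and at 1051, 978 and 1035 in mutant libraries, and whole-gene counts do not show the mutated exon. In both genotypes library 1 stood apart from the others: between replicates the chi-square per gene came to 14.2 and 17.1 for pairs with WT library 1 and 3.58 without it, and 33.9 and 35.8 for pairs with mutant library 1 and 2.78 without it. Of 8 stellate markers 7 were listed, with summed levels of 152195 to 161854 in WT and 176704 to 201449 in mutant libraries, and DES was not listed. That sum rests mainly on VIM and COL1A1: VIM and TIMP1 rose (0.27 and 0.94), ACTA2, COL1A2 and PDGFRB fell (-0.97, -1.37 and -0.47), and COL1A1 and SPARC did not pass. For other cell types, 1 of 5 hepatocyte markers (SERPINA1, 62.4 to 173 over the 6 libraries), 3 of 4 cholangiocyte, 3 of 4 endothelial and 4 of 4 macrophage markers were listed. ALB, EPCAM and CDH5 were among those not listed. Summed levels were 1921 to 2155 in WT and 2710.4 to 3257 in mutant libraries for the cholangiocyte, 88.5 to 125 and 169 to 201 for the endothelial, and 523 to 604 and 324 to 356 for the macrophage markers. Members of these lists went different ways. SOX9 rose (0.68) while KRT19 and KRT7 did not pass, PECAM1 rose (2.03) while VWF and KDR did not pass, and CD14 fell (-1.72) while CD68 and CSF1R rose (0.74 and 0.92) and PTPRC did not pass. SERPINA1 fell (-1.07). The part of any of these markers in the results below was not tested.

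The replication genes were mostly lower in the mutant cells. Of the 48, 28 fell (58.3%), where 16.6% of all 17893 tested genes fell, and 3 rose, where 16.0% of all tested genes rose. The remaining 17 did not pass the test, and of all tested genes 32.6% passed in either direction. With both libraries numbered 1 left out, 34 fell and 7 rose, against 26.8% and 27.9% of all tested genes. With the replicate block, which takes the library number into the fit, 33 fell and 4 rose, against 24.6% and 25.1%. Without mutant library 1 alone 6 rose. The count over all tested genes also changes with the library left out, over the range given at the end, so this 6 has no matched share here. The median log2 fold change was -0.30 over the 48 genes, with quartiles of -0.46 and -0.09, and -0.0031 over all genes tested, with quartiles of -0.29 and 0.25. The changes were of moderate size: 9 genes (18.8%) fell by at least 0.5 on the log2 scale, which 10.1% of all tested genes did. All 48 passed the filter on low values, with no fewer than 367 reads in any library. Their WT means ran from 650 to 16348, while the tested genes start at a mean of 10. The shares over all tested genes were not matched for level.

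Added over the 48 genes, the level was 206202, 214697 and 216861 in WT and 176623, 171060.5 and 171333 in mutant libraries, 18.6% lower on average, with no overlap. This sum was 0.668% to 0.682% of all normalised reads in WT and 0.522% to 0.566% in mutant libraries. For 30 of the 48 genes all 3 mutant libraries lay below all 3 WT libraries, which held for 23.6% of all tested genes. Mutant libraries lay above WT in 3 of the 48, against 23.1% of all tested genes. Fewer cells in S phase and less of these RNAs per cell cannot be told apart in bulk RNA.

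**Figure D1:**
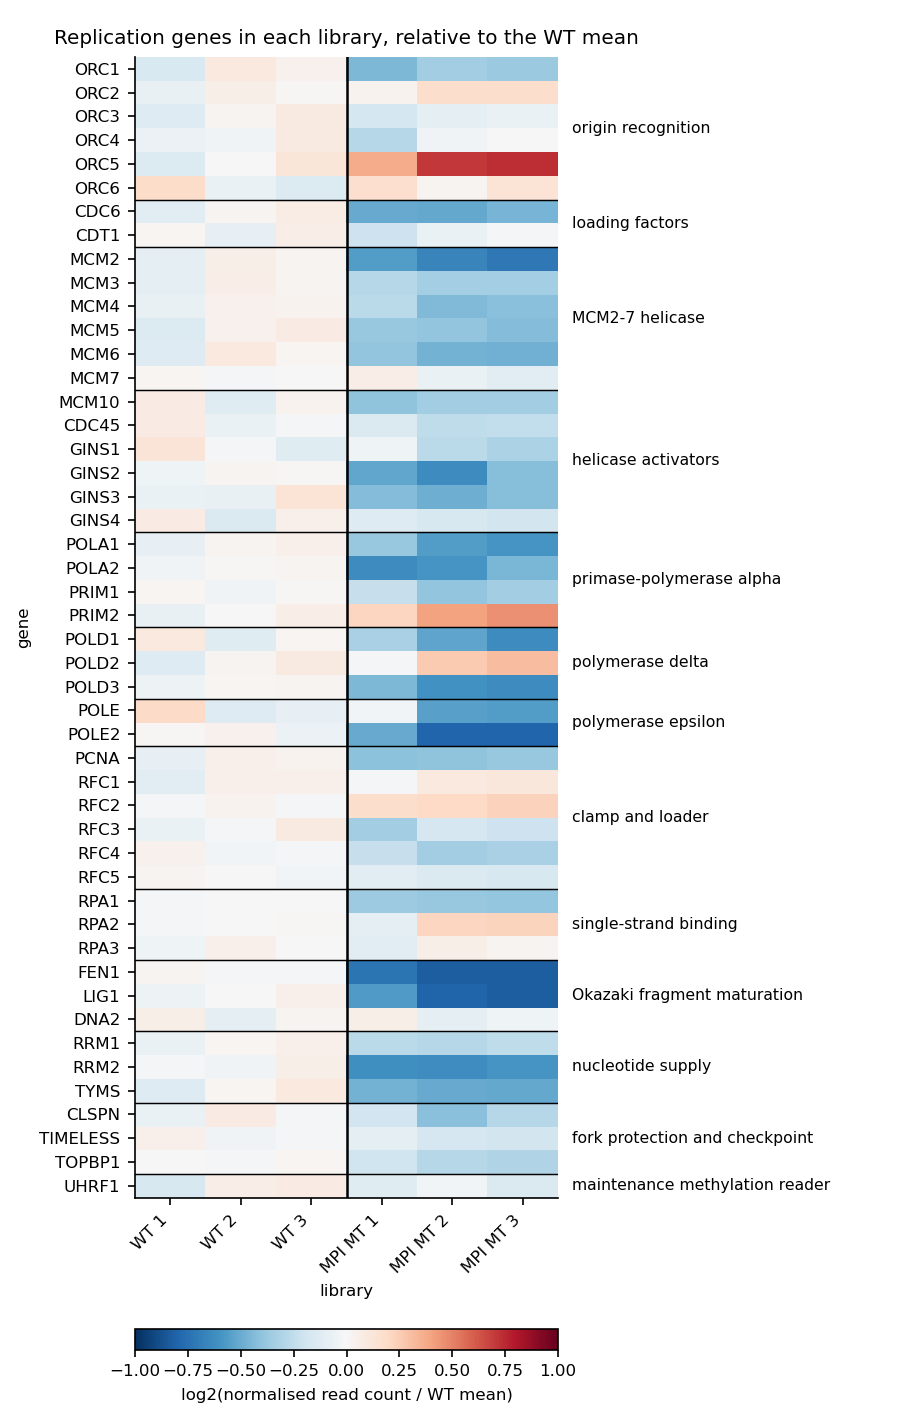
Level of each of the 48 genes (rows, by complex) in each of the 6 libraries (columns) as log2 of the normalised read count over the WT mean of that gene, blue below and red above. The mutant columns are mostly blue, deepest for FEN1, LIG1 and POLE2, with red rows for ORC5 and PRIM2.

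**Figure D2:**
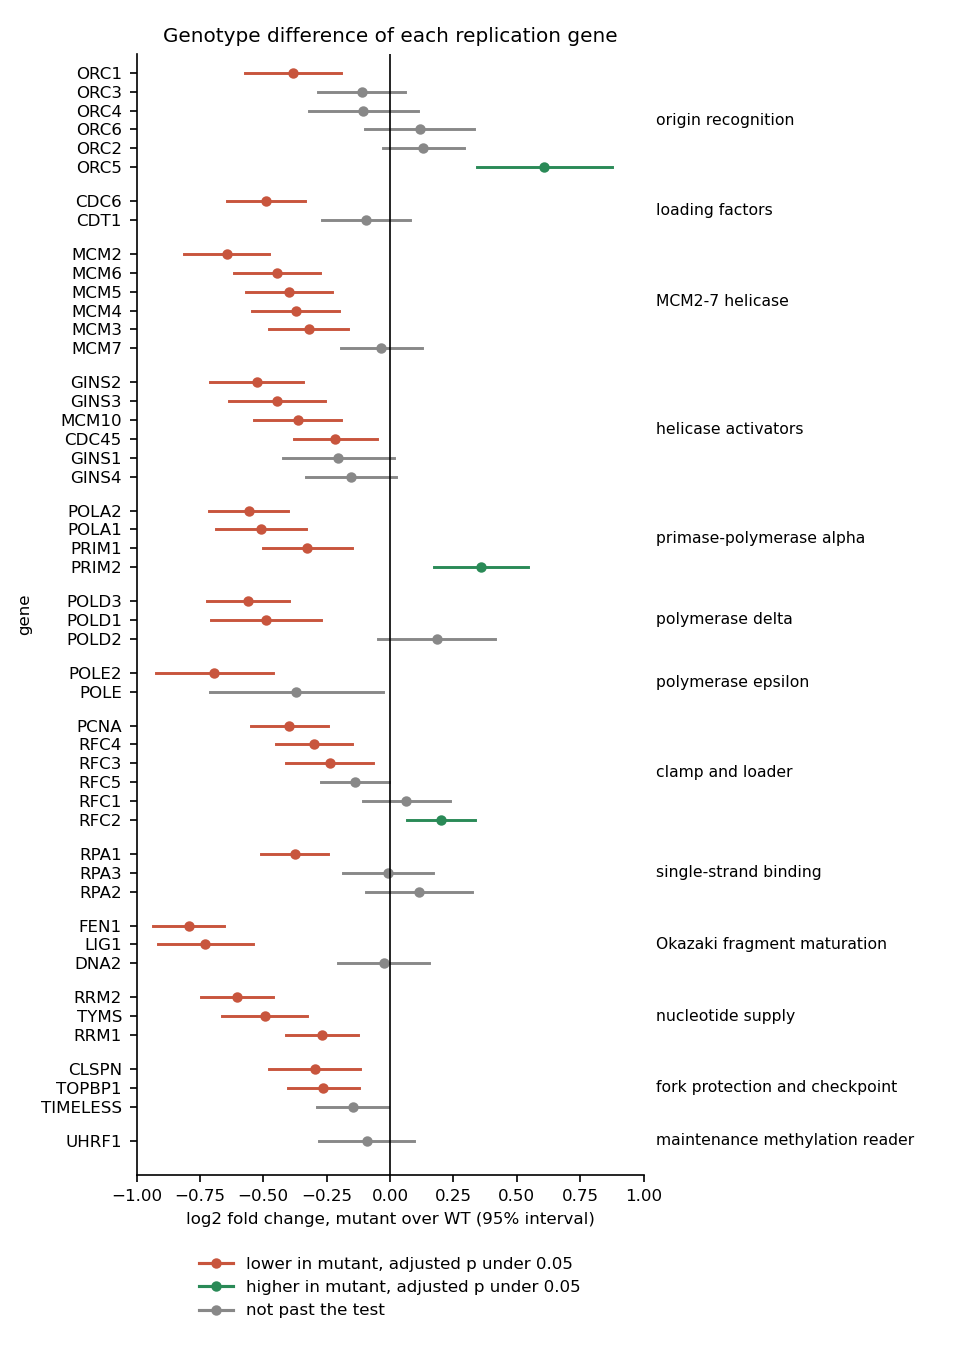
Log2 fold change of each gene, mutant over WT (x axis), with its 95% interval from limma as a line, by complex, coloured by the test at an adjusted p of 0.05. Of the 48 genes, 28 lie below 0 and pass, 3 lie above 0 and pass, and 17 do not pass.

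Since most of the genes fell, their promoters were searched for the letters that E2F factors bind. RefSeq windows (GRCh38.p14) from 250 bases before to 50 bases after the transcription start were at hand for 41 of the 48 genes; those not matched were MCM4, MCM5, GINS4, POLD3, RPA2, RPA3 and DNA2. The letters searched, on both strands and with overlapping matches counted, were the 4 runs GCGGGAA, then GCGCGAA, then GCGCCAA, then GCGGCAA. They stood in a window of 31 of the 41 genes (75.6%), in 4553 of all 35116 windows of the table, and in 24.3% of the 11368 tested genes with a window. Among the 41 genes, 21 of 25 that fell, 1 of 3 that rose and 9 of 13 that did not pass held them. For all tested genes with a window these shares were 27.2%, 20.6% and 24.5%. Over all tested genes 20.3% of those with the letters fell, against 17.5% of those without. The CCAAT letters of the factor NF-Y stood in 61.0% of the 41 genes and in 42.9% of all tested genes with a window. In the table's full set of windows their share was 34.6%. They stood in 14 of the 25 genes that fell, 0 of the 3 that rose and 11 of the 13 that did not pass. For all tested genes with a window these shares were 44.6%, 41.9% and 42.7%. The GC box letters GGGCGG stood in 75.6% of the 41 genes, in 75.1% of all tested genes with a window and in 15786 of all 35116 windows. They stood in 18 of the 25 genes that fell, 1 of the 3 that rose and 12 of the 13 that did not pass. For all tested genes with a window these shares were 77.2%, 75.2% and 74.5%. The CCAAT and GC box letters were also searched on both strands.

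The windows shown are those of the 4 genes with the largest falls, of MCM6 with its repeated matches, of RFC1, which carries such letters and did not pass, and of RFC2 and ORC5, which rose. They are written in lower case from 5′ to 3′ with the E2F letters in capitals.
FEN1, chr11:61792661-61792960, plus strand: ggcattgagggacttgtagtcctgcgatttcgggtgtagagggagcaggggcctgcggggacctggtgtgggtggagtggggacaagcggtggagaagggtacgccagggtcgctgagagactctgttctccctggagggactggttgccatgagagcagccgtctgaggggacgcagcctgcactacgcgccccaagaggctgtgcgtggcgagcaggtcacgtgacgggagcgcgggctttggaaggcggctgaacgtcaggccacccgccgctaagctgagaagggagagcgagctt
LIG1, chr19:48170295-48170594, minus strand: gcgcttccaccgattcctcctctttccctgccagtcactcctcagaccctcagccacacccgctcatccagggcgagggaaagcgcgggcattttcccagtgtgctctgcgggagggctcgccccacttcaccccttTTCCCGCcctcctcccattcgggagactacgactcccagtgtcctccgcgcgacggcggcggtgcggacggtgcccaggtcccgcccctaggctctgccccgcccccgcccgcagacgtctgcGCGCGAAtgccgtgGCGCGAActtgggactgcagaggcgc
POLE2, chr14:49688165-49688464, minus strand: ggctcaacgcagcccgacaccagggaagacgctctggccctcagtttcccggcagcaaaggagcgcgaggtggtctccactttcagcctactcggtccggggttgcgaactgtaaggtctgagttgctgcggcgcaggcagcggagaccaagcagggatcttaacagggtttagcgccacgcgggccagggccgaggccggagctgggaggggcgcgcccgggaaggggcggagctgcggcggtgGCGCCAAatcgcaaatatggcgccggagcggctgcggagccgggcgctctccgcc
MCM2, chr3:127598161-127598460, plus strand: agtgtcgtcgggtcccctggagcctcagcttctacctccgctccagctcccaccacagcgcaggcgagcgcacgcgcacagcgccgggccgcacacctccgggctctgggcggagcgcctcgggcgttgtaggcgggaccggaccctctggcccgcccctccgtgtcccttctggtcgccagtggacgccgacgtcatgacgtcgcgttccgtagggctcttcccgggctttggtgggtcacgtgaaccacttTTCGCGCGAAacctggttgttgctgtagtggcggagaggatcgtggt
MCM6, chr2:135876394-135876693, minus strand: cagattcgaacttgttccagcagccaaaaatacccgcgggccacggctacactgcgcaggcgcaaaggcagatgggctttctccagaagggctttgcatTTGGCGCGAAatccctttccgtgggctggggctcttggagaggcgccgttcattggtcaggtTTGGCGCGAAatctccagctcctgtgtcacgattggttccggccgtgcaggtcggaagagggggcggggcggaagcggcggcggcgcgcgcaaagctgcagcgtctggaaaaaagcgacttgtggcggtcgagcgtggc
RFC1, chr4:39366313-39366612, minus strand: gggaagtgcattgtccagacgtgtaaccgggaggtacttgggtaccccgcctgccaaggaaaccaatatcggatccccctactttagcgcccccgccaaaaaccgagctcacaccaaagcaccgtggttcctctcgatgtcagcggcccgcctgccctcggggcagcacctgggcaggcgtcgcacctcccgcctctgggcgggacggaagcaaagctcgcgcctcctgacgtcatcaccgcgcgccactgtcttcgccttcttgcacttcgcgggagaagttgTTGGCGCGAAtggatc
RFC2, chr7:74254350-74254649, minus strand: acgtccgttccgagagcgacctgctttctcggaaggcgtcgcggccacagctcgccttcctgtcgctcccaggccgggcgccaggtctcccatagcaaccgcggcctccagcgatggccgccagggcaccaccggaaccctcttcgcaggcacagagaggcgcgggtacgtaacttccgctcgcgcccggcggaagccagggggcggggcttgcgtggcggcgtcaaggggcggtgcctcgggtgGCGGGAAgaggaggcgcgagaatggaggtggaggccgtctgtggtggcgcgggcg
ORC5, chr7:104207964-104208263, minus strand: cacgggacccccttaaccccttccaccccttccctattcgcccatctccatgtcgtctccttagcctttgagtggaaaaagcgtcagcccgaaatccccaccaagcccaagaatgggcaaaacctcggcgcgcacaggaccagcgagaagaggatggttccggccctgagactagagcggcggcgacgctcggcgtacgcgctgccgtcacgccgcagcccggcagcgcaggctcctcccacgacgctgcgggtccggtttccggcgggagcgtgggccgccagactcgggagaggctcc
FEN1, with the largest fall of the 48, had none of these letters in this window, and LIG1, with the next largest, had 3 matches. In MCM2 a pair of overlapping matches on opposite strands began 4 and 7 bases into the transcript. MCM6 had 4 matches, which formed 2 overlapping pairs that began 151 and 89 bases before the start. RFC1 carried the same overlapping letters as MCM6, beginning 35 bases into the transcript, and RFC2 had 1 match 5 bases before the start. ORC5 had none. A match is a description of these letters and not a binding site.

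Origin recognition genes differed among themselves. ORC1, the subunit whose level follows the cell cycle, fell, ORC5 rose, and the other 4 did not pass. ORC5 was at 613, 672 and 734 in WT and at 872, 1096 and 1125 in mutant libraries (0.61 ± 0.12, limma adjusted p = 0.00473), so every mutant library was above every WT library, and mutant library 1 was the lowest of its genotype. ORC1 was at 1233, 1466 and 1412 in WT and at 1006, 1077 and 1060.4 in mutant libraries (-0.38 ± 0.08, limma adjusted p = 0.00845), again with no overlap. The ORC5 to ORC1 ratio was thus 0.497, 0.458 and 0.520 in WT and 0.866, 1.02 and 1.06 in mutant libraries. ORC4, which changed least, was at 867, 881 and 959 in WT and at 742, 882 and 899 in mutant libraries, with a 95% interval of the log2 fold change from -0.32 to 0.11. The intervals of ORC2 (-0.03 to 0.29), ORC3 (-0.29 to 0.06) and ORC6 (-0.10 to 0.33) also held 0, and their libraries overlapped. With both libraries numbered 1 left out, these genes did pass. ORC2 and ORC6 then rose (limma adjusted p = 0.0159 and 0.0128) and ORC3 fell (0.0166). Added over the complex, the level was 8999.9 ± 348 in WT and 9124 ± 457 in mutant libraries.

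Of the loading factors, CDC6, the ATPase that brings the helicase to the origin, fell, and CDT1, its partner that geminin inhibits, did not pass. CDC6 was at 3639, 3976 and 4115 in WT and at 2761, 2747 and 2838 in mutant libraries (-0.49 ± 0.07, limma adjusted p = 9.23e-04). All mutant libraries lay well below WT and close to each other. CDT1 was at 1769, 1652 and 1827 in WT and at 1519, 1672 and 1728 in mutant libraries, which overlapped, with an interval from -0.27 to 0.08. The CDT1 to CDC6 ratio was 0.449 ± 0.035 in WT and 0.589 ± 0.034 in mutant libraries.

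Of the 6 subunits of the MCM2-7 helicase, 5 fell and MCM7 did not pass. MCM2 fell most, from 9829, 10872 and 10683 in WT to 7098, 6605 and 6367 in mutant libraries (-0.64 ± 0.07, limma adjusted p = 3.35e-04), with no overlap. MCM7 was at 12332, 12003 and 12247 in WT and at 12799, 11669.6 and 11307 in mutant libraries, which lay on both sides of WT, with an interval from -0.20 to 0.13. Between these lay MCM6 (-0.45 ± 0.07), MCM5 (-0.40 ± 0.07), MCM4 (-0.37 ± 0.08) and MCM3 (-0.32 ± 0.07), with limma adjusted p from 0.00249 to 0.00801 and no overlap in any of them. The MCM7 to MCM2 ratio was 1.25, 1.10 and 1.15 in WT and 1.80, 1.77 and 1.78 in mutant libraries, 3 values that nearly coincide.

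**Figure D3:**
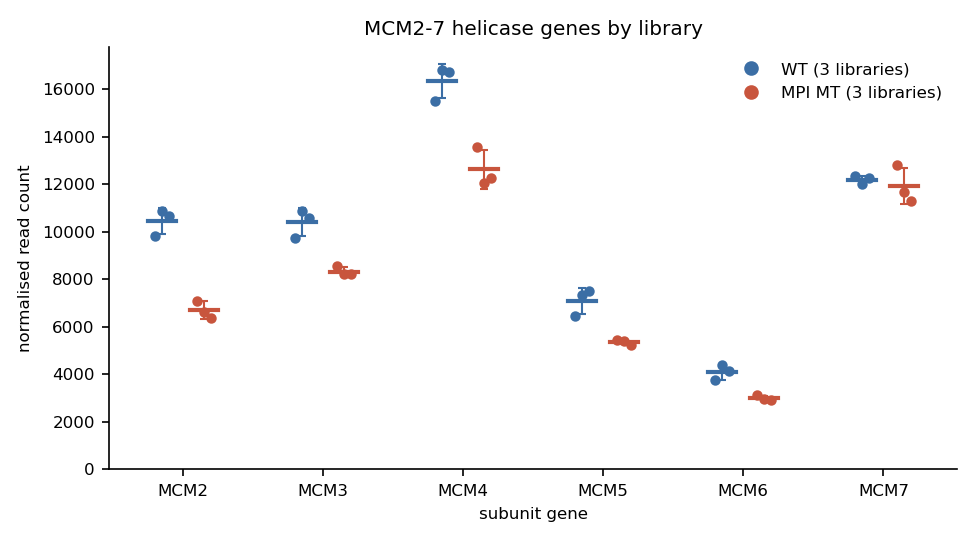
Normalised read count (y axis, from 0) of the 6 helicase subunit genes in the 3 WT (blue) and 3 mutant (red) libraries, with the mean as a bar and the SD as a whisker. The groups are apart for MCM2, MCM3, MCM4, MCM5 and MCM6 and overlap for MCM7.

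Per kilobase of annotated exon, mean WT levels of the helicase genes ran from MCM3 (2849) over MCM7 (2780.3), MCM4 (2345), MCM2 (2134) and MCM6 (992) to MCM5 (965). The WT libraries of MCM3 and MCM7 overlapped on this scale, as did those of MCM6 and MCM5. In mutant libraries MCM7 stood first (2719 per kilobase), followed by MCM3 (2279), MCM4 (1812), MCM2 (1365), MCM5 (731) and MCM6 (727), and the libraries of the last pair overlapped. Over all 48 genes the highest level per kilobase was that of PCNA, at 8395 in WT and 6372 in mutant libraries, and the lowest that of ORC4, at 101 and 94.3. These lengths join the exons of all annotated transcripts, so a gene with unused exons reads too low.

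Of the 6 genes that turn the loaded ring into a working helicase, 4 fell. GINS2, a subunit of the GINS complex, changed most, from 850.3, 894 and 883 in WT to 610, 565 and 651 in mutant libraries (-0.53 ± 0.08, limma adjusted p = 0.00159), with no overlap. GINS3 (-0.45 ± 0.08, adjusted p = 0.00407) and MCM10, a scaffold that binds the ring at firing (-0.36 ± 0.08, adjusted p = 0.00694), also fell in limma. CDC45, the helicase cofactor, fell from 1573, 1420.4 and 1465 to 1343, 1243 and 1251 (-0.22 ± 0.07, limma adjusted p = 0.0477), a call just inside the threshold. It ended with TMM rescaling (0.0594), with edgeR (0.0570), and when WT library 1, 2 or 3 or mutant library 2 or 3 was left out (0.0823 to 0.165). GINS4 was at 1736, 1488 and 1704 in WT and at 1506, 1467 and 1446 in mutant libraries, where 1 mutant library overlapped WT, with a limma adjusted p of 0.161 that became 0.0485 with the replicate block. For GINS1, the limma adjusted p was 0.137 and its replicate block value 0.00481, as a fall.

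Primase and polymerase alpha share 1 complex that makes the RNA-DNA primers, and its subunits moved in opposite directions. POLA2, the accessory subunit of the polymerase, fell from 2699, 2791 and 2818 in WT to 1794, 1835 and 2018 in mutant libraries (-0.56 ± 0.07, limma adjusted p = 5.05e-04). POLA1, the catalytic subunit, fell from 4036, 4372 and 4427 to 3297, 2904 and 2837 (-0.51 ± 0.08, limma adjusted p = 0.00163). The groups were apart for both genes. PRIM1, the catalytic primase subunit, fell from 823, 791 and 820.0 to 691, 616 and 637 (-0.33 ± 0.08, limma adjusted p = 0.0126), and PRIM2, its large partner, rose from 1409, 1486 and 1553 to 1723, 1954 and 2039 (0.36 ± 0.08, limma adjusted p = 0.0107). The PRIM2 to PRIM1 ratio was 1.71, 1.88 and 1.89 in WT and 2.49, 3.17 and 3.20 in mutant libraries. RefSeq lists a pseudogene of PRIM2 (PRIM2BP) that was not found under that name in GENCODE 29, so its count is uncertain.

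**Figure D4:**
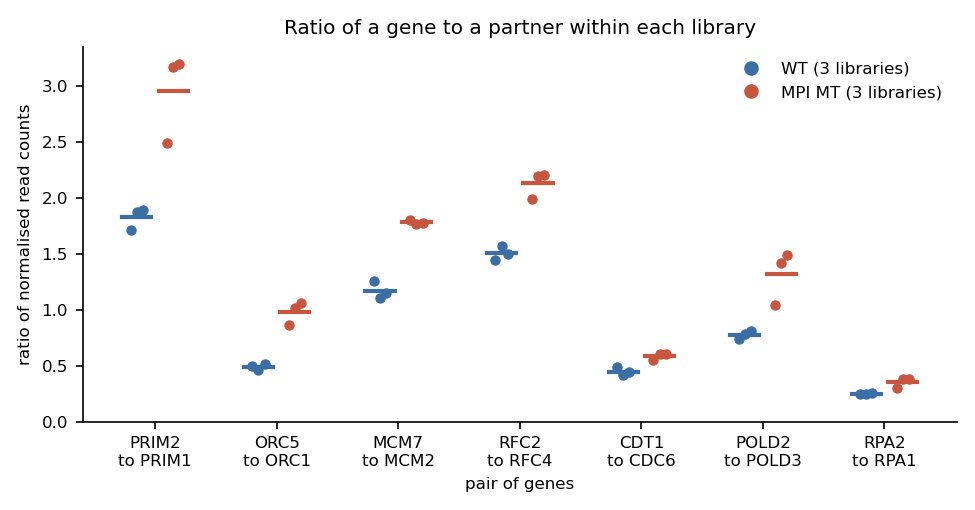
Ratio of the normalised read counts of 2 genes of the same step within each library (y axis, from 0), for 7 pairs chosen after their values were seen, in WT (blue) and mutant (red) libraries with the mean as a bar. The mutant ratios lie above the WT ratios in all 7 pairs, as the choice of pairs made likely, with PRIM2 to PRIM1 at 1.71 to 1.89 in WT and 2.49 to 3.20 in mutant libraries.

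Polymerase delta, which extends the lagging strand, had 2 genes that fell and 1 that did not pass. POLD3 fell from 3393, 3566 and 3594 in WT to 2583, 2315 and 2270.2 in mutant libraries (-0.56 ± 0.07, limma adjusted p = 6.10e-04). POLD1, the catalytic subunit, fell from 2373 ± 181 to 1694 ± 184 (-0.49 ± 0.09, limma adjusted p = 0.00514), with no overlap for either gene. POLD2 was at 2505, 2802 and 2922 in WT and at 2704, 3282 and 3389.9 in mutant libraries, where mutant library 1 lay within the WT range. The limma adjusted p of 0.197 became 0.00981, as a rise, under the replicate block.

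Polymerase epsilon copies the leading strand. POLE2, its second subunit, fell from 655, 669 and 626 in WT to 458, 376 and 376 in mutant libraries (-0.69 ± 0.10, limma adjusted p = 0.00122), a fall of 38.0% in the mean. POLE, the catalytic subunit, was at 6709.7, 5375 and 5554 in WT and at 5769, 4026 and 4002 in mutant libraries (-0.37 ± 0.15, limma adjusted p = 0.0925). Library 1 was the highest of its genotype in both groups, by 0.30 in WT and 0.52 in mutant libraries on the log2 scale, and mutant library 1 lay above 2 of the WT libraries. POLE passed as a fall with the replicate block (limma adjusted p = 8.11e-05) and with both libraries numbered 1 left out (5.53e-08).

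The sliding clamp and its loader were split. PCNA, the clamp that tethers the polymerases to DNA, fell from 11661, 12759 and 12628 in WT to 9302, 9321 and 9495 in mutant libraries (-0.40 ± 0.07, limma adjusted p = 0.00238), and the mutant libraries lay close together. Of the 5 loader genes, RFC4 (-0.30 ± 0.06, limma adjusted p = 0.00845) and RFC3 (-0.24 ± 0.07, 0.0397) fell and RFC2 rose. RFC2 was at 2935, 3047 and 2924 in WT and at 3357, 3399 and 3478 in mutant libraries (0.20 ± 0.06, limma adjusted p = 0.0293), with no overlap. RFC1, the large subunit, was at 9309, 10429 and 10415 in WT and at 9905, 10730.1 and 10869 in mutant libraries, which overlapped, with an interval from -0.11 to 0.24. For RFC5 the mutant libraries (2712, 2649 and 2609) lay below WT (2986, 2916 and 2863), with a limma adjusted p of 0.107 that became 0.0396 with the replicate block. The RFC2 to RFC4 ratio was 1.51 ± 0.06 in WT and 2.13 ± 0.12 in mutant libraries.

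Replication protein A coats the exposed strand as a trimer. RPA1, its large subunit, fell from 9125, 9223 and 9181 in WT to 7139.8, 7047 and 7034 in mutant libraries (-0.38 ± 0.06, limma adjusted p = 0.00167), a shift many times the spread within either genotype. RPA3, the small subunit, was at 802, 859 and 824 in WT and at 767, 863 and 842 in mutant libraries, with an interval from -0.19 to 0.17. RPA2 was at 2283, 2296 and 2316 in WT and at 2153, 2665 and 2686 in mutant libraries, where library 1 lay below and the others above WT (limma adjusted p = 0.372). With both libraries numbered 1 left out, RPA2 passed as a rise (limma adjusted p = 6.90e-04).

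The largest falls of the 48 genes were in Okazaki fragment maturation, the trimming and joining of lagging-strand pieces. FEN1, the flap nuclease, fell from 7124, 6952 and 6903 in WT to 4206, 3951 and 3942 in mutant libraries (-0.79 ± 0.06, limma adjusted p = 4.65e-05), 42.3% lower in the mean. LIG1, the ligase that seals the nicks, fell from 3191, 3311 and 3432 to 2234, 1902 and 1874 (-0.73 ± 0.08, limma adjusted p = 3.36e-04). Both groups were far apart relative to their spread. DNA2, the nuclease that trims long flaps, was at 910.2, 817 and 890.1 in WT and at 907, 820.5 and 846 in mutant libraries, with an interval from -0.20 to 0.16, so a change as large as that of FEN1 lies outside it.

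All 3 genes of nucleotide supply fell. RRM2, the regulated small subunit of ribonucleotide reductase, fell from 10673, 10570.2 and 11290.3 in WT to 7108, 7069 and 7219 in mutant libraries (-0.60 ± 0.06, limma adjusted p = 2.10e-04). RRM1, the large subunit, fell from 5622, 5969 and 6114 to 4892, 4854 and 4942 (-0.27 ± 0.06, limma adjusted p = 0.0110), and no library of either gene crossed between groups. TYMS, thymidylate synthase, fell from 8574 ± 668 to 6074 ± 82.9 (-0.49 ± 0.07, limma adjusted p = 0.00136). ENOSF1, on the opposite strand, and 1 other gene cover 46.6% of the exon bases of TYMS, and whether reads were counted by strand is not stated, so its count is uncertain.

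Of the fork protection and checkpoint genes, CLSPN and TOPBP1, adaptors of the ATR checkpoint, fell. CLSPN fell from 5494, 6088 and 5658 in WT to 5031, 4301 and 4714 in mutant libraries (-0.30 ± 0.08, limma adjusted p = 0.0198), and TOPBP1 from 5898 ± 68.1 to 4917 ± 194 (-0.26 ± 0.06, 0.0114). TIMELESS, of the fork protection complex, was at 4299, 4067 and 4116 in WT and at 3901, 3710.5 and 3659 in mutant libraries, with no overlap, a limma adjusted p of 0.100 and 0.0267 with the replicate block. UHRF1, which reads methylation on newly copied DNA, was at 5276, 6173 and 6246 in WT and at 5417, 5802 and 5341 in mutant libraries, which overlapped, with an interval from -0.28 to 0.10. With both libraries numbered 1 left out, UHRF1 passed as a fall (limma adjusted p = 0.00854).

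Of the 31 genes that passed, 24 did so under all 18 alternative fits: 22 that fell, and ORC5 and PRIM2 among those that rose. The other 7 were CDC45 and 6 genes whose call ended only when 1 library was left out. RFC2 and RFC3 lost it without any one of WT libraries 1, 2 or 3 or mutant libraries 2 or 3, with limma adjusted p of 0.0737 to 0.107 and 0.0534 to 0.146. CLSPN lost it without WT library 2 or 3 or mutant library 2 or 3 (0.0574 to 0.0900), PRIM1 and TOPBP1 without WT library 3 or mutant library 2 or 3 (0.0503 to 0.0636 and 0.0508 to 0.0582), and RRM1 without WT library 2 or 3 or mutant library 2 (0.0527 to 0.0553). Genes that passed in none of the fits were ORC4, CDT1, MCM7, RFC1, RPA3 and DNA2. Exons of POLA2, MCM2, GINS4, PRIM1, RRM2 and TYMS overlap other annotated genes over more than 20% of their length, and PCNA, RPA2, RRM2, TYMS, FEN1, POLD2, RFC3 and RFC5 have pseudogenes that carry their names, so reads of these genes could be split or lost in the counting. The libraries numbered 1 stood above the others of their genotype in both groups for 14 of the 48 genes and below in both for 18.

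Of 73 other genes of replication, in 7 lists, 29 fell, 9 rose and 35 did not pass, with a median log2 fold change of -0.14. In that fit 16.6% of all tested genes fell and 16.0% rose. These shares are also the background of the list counts in the next paragraphs. Of the 73 genes, the number that fell was 12 without mutant library 2, 14 without mutant library 3, and 16, 15 and 18 without WT library 1, 2 and 3. The number that rose was 5 without WT library 1 or 2 or mutant library 2 or 3. Counts over all tested genes also changed with the library left out, over the ranges given at the end. The shares of 16.6% and 16.0% are thus not the background of these leave-out counts. With both libraries numbered 1 left out 41 fell and 15 rose, against 26.8% and 27.9% of all tested genes. With the replicate block 35 fell and 13 rose, against 24.6% and 25.1%, which is also the background of the blocked list counts. By list, the blocked fit gave 4 falls and 2 rises for licensing control and firing kinases, 7 and 2 for the E2F and RB family, 6 and 4 for other polymerase, clamp and fork factors, and 5 and 1 for further nucleotide supply. For chromatin assembly and methylation it gave 4 and 3, for translesion genes 5 and 1, and for checkpoint genes 4 and 0. No list was tested against these shares.

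In the further nucleotide supply list 4 of 9 fell and 1 rose. NME1, a nucleoside diphosphate kinase, rose from 1957 ± 186 to 2787 ± 475 (0.50 ± 0.13, limma adjusted p = 0.0194). Among E2F and RB family genes 6 of 13 fell and 1 rose: the repressor E2F8 fell from 692 ± 59.2 to 389.8 ± 61.5 (-0.83 ± 0.12, limma adjusted p = 0.00146). E2F2, an activator, fell from 960.5 ± 17.1 to 579 ± 56.1 (-0.73 ± 0.09, 4.37e-04). The rise was that of E2F5.

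Licensing control and firing kinases had 4 falls and 2 rises among 12 genes, and the cyclin E genes went opposite ways. CCNE1 rose (0.97 ± 0.09) and CCNE2 fell (-0.91 ± 0.08), with limma adjusted p of 1.48e-04 and 1.23e-04. Of other polymerase, clamp and fork factors 4 of 15 fell and 2 rose, led by RNASEH2C, a ribonuclease H2 subunit (-0.61 ± 0.07, limma adjusted p = 3.17e-04), and ATAD5, which unloads PCNA (-0.53 ± 0.14, 0.0174), which both fell. POLD4, the small subunit of polymerase delta, rose (0.52 ± 0.09, limma adjusted p = 0.00359).

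Of 8 chromatin assembly and methylation genes 4 fell, led by the remodeller HELLS (-0.49 ± 0.10, limma adjusted p = 0.00793), and 2 rose, led by the histone chaperone ASF1A (0.38 ± 0.11, 0.0287). Of 8 translesion genes 4 fell and 1 rose, and the largest changes were the rise of POLI (0.59 ± 0.10, limma adjusted p = 0.00311) and the fall of POLH (-0.51 ± 0.14, 0.0227). Among 8 replication checkpoint genes 3 fell, with RAD1, a clamp subunit of that checkpoint, at -0.27 ± 0.06 (limma adjusted p = 0.00855), and RAD17, which loads that clamp, at -0.26 ± 0.06 (0.0133).

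Mitosis genes gave a different count from the replication genes: 2 of 16 fell and 2 rose, with a median log2 fold change of 0.01. These counts are near the shares of all tested genes, of which 16.6% fell and 16.0% rose. With the replicate block 3 mitosis genes fell and 6 rose, against 24.6% and 25.1% of all tested genes. Without mutant library 1 alone 6 rose, and without any other single library 0 to 2 rose and 1 or 2 fell. For these leave-out fits the counts over all tested genes changed too, over the ranges given at the end. KIF20A fell (-0.62 ± 0.12, limma adjusted p = 0.00464) and BIRC5 rose (0.46 ± 0.11, 0.0116). The difference between the lists was not tested.

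**Figure D5:**
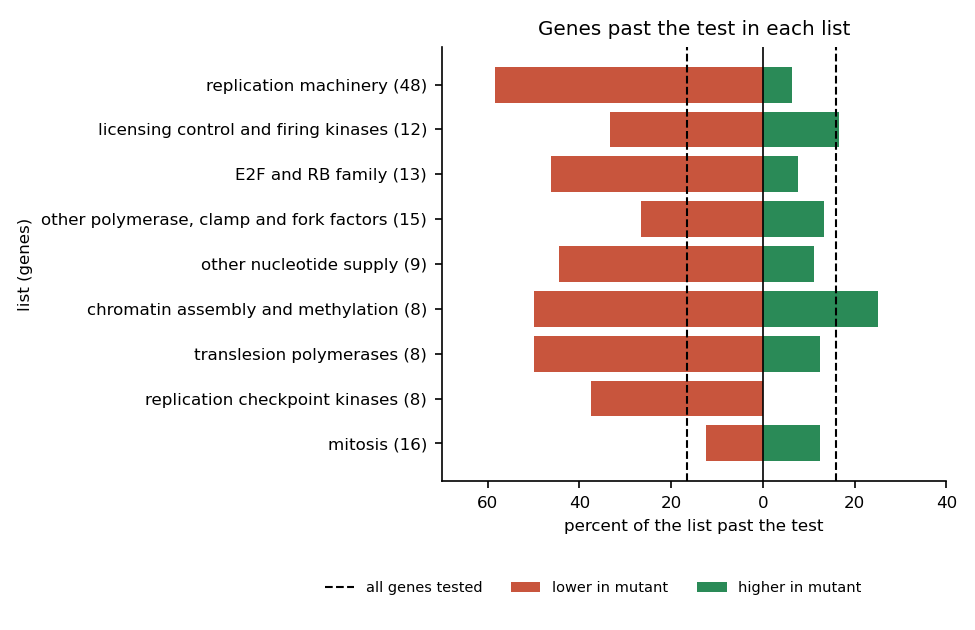
Percent of each list that passed the test as lower (bars to the left) or higher (bars to the right) in mutant libraries, with the number of genes in brackets and the share over all tested genes as dashed lines at 16.6% and 16.0%. The bar of the 48 replication genes reaches 58.3% to the left, and the mitosis bar stays inside both lines.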

How the data were processed

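RNA-seq values of 6 LX-2 libraries, 3 per genotype, came from 1 table. Per the labels' protocols, mRNA was selected by poly(A) and cDNA made by random priming. Per the submitters' processing notes, the tools were Trimmomatic 0.36, STAR 2.5.2b, featureCounts, Subread 1.5.2 and DESeq2 with GRCh38, without roles or settings. The signal in each library's column was deposited by the authors without a named unit. Each column was an integer grid: 100% of its values fell within 0.01 of a read of a whole number of equal steps, as for gene counts over a size factor (0.859 to 1.10), and such scaling hides any shift in RNA per cell. The log2 fold changes deposited by the authors, and the p-values deposited by the authors, entered only as an alternative.

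Genotypes were compared with limma 3.58.1 under R 4.3.3, using its trend and robust options, a pseudocount of 1 on the log2 scale and no other covariate. The 17893 genes whose mean reached 10 entered, and the fit was checked on simulated counts. The simulated libraries were drawn independently, with no shift tied to the library number, so that check does not cover such a shift. Calls are at an adjusted p under 0.05. A fold change on this scale understates the change of low genes. The members, lists, tests and alternatives were chosen with earlier results of these data known. Values in each library are given for genes that fell or rose by at least 0.5 on the log2 scale, and for the largest and smallest change of each complex; others were named after their values were seen. Exon lengths, overlaps and pseudogenes are from GENCODE 29.

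Replicates of a genotype differed by more than counting noise (chi-square per gene from 2.78 to 35.8), so none were merged. Deviations from the genotype means correlated at 0.545, 0.189 and 0.276 for libraries of equal number, each over 0.1, which met the limit set for pairing, although the labels name no shared batch. The reported test has no such pairing. Libraries 2 and 3 of unlike number also passed that limit (0.168 and 0.299). The fit that pairs equal numbers, with the number as a block, was run as well, and is given beside every member call that it changes. Other alternatives were leaving out libraries, TMM or upper-quartile rescaling, other filters and pseudocounts, and edgeR 4.0.16 and DESeq2 1.42.0 on the recovered reads.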

Additional observations from a re-analysis of the deposited data

How the results depend on the processing

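Among the 48 replication genes, the number that fell stayed between 22 and 34 over all alternatives, against 28, and every gene that passed kept its direction. The number that rose was 3, and 5 with edgeR and the replicate block, 7 with both libraries numbered 1 left out, 1 at an adjusted p under 0.01, and 2 to 6 with 1 library left out. With the replicate block 33 fell and 4 rose. Of 864 single-gene values under alternatives, 797 kept direction and side of the threshold, 30 lost and 28 gained the call, and 9 changed sign, all of genes that did not pass. With 1 library left out, the log2 fold change of MCM7 ranged from -0.086 to 0.0033, the log2 fold change of DNA2 from -0.070 to 0.0075 and the log2 fold change of RPA3 from -0.043 to 0.042. For RPA3 it was 0.019 with both libraries numbered 1 left out, 0.00082 with TMM rescaling, 0.0029 with edgeR and 0.00059 with edgeR and the block.

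The number of all genes called higher was 2866 and of all genes called lower 2963. The first was 4494 with the replicate block, 4640 with edgeR and the block, 4989 (and the second 4788) with both libraries numbered 1 left out, and 1513 (and 1799) at an adjusted p under 0.01. With 1 library left out, the first ranged from 1749 to 4415 and the second from 2036 to 4291. Of the 73 related genes 9 rose and 29 fell. With both libraries numbered 1 left out 15 rose, at an adjusted p under 0.01 4 rose and 13 fell, and with 1 library left out 5 to 11 rose and 12 to 33 fell. Of the mitosis genes 6 rose with the replicate block in limma and in edgeR and 7 with both libraries numbered 1 left out, 0 rose and 1 fell at an adjusted p under 0.01, and with 1 library left out 0 to 6 rose and 1 to 3 fell. The cause of these shifts was not tested. The scaling alternatives moved the median of all genes by less than 0.1 on the log2 scale. No member had fewer than 367 reads in a library.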
